A study of Mus musculus with 5 samples.

Results

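The 42 genes described here are genes of mitosis and of the spindle, taken by their symbols from the 31053 genes of the count table. They were followed in 5 single-cell libraries of mouse bone marrow (BM) made before and after cyclophosphamide (CTX), an alkylating drug that damages the DNA of dividing cells. The rule that picks them names the genes and uses no measured value, but the list was chosen with earlier results of these data known. By role, 8 belong to the engine built on the kinase CDK1, 3 act on mitotic chromosomes, 5 are mitotic kinases or belong to the chromosomal passenger complex, 5 serve the spindle checkpoint, 3 the anaphase-promoting complex, 6 the kinetochore, 8 the spindle and 4 cytokinesis. The genes lie on 16 chromosomes, with at most 7 on 1 chromosome, and all 42 were detected in all 5 libraries.

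A cell enters mitosis when CDK1, bound to an A-type or B-type cyclin, becomes active. Microtubules from the spindle then attach to kinetochores, the checkpoint holds the cell until every chromosome is attached, and the anaphase-promoting complex releases it by marking securin and cyclin B for destruction. Transcripts of most of these genes build up in G2 and mitosis and are scarce in resting cells, so in BM they mark the dividing precursors of the B, red cell and myeloid lineages, while mature neutrophils have left the cycle.

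Cells came from BALB/c mice a few weeks old. Whole BM was taken from naive mice, from mice 2 days after CTX (D2 CTX) and from mice 7 days after CTX (D7 CTX), with 150 mg/kg of CTX given by intraperitoneal injection. The other libraries held monocytes sorted as CD11b+Ly6Chi, 1 from naive and 1 from CTX-treated mice. The label of the CTX-treated sorted library gives no day, and the study's methods place it at day 7. BM was depleted of red cells by lysis and of dead cells, and equal numbers of cells from 3 mice were pooled for each whole BM library, so that 1 library stood for each condition. No spread between mice or libraries could therefore be measured, no test between conditions could be made, and every interval printed is a 95% interval that covers counting error only. The D2 CTX and D7 CTX values are both set against the same naive library.

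The libraries held between 22694817 and 68459527 unique molecular identifiers (UMIs), each standing for 1 captured transcript, and between 1891 and 8290 kept cells. The median depth of the kept cells was 3953.5 UMIs in naive BM, 3033.5 at day 2 and 7189.5 at day 7, and 10299 and 9694 in the naive and CTX sorted libraries. Pairs of libraries shared between 2 and 16 cell barcodes. Levels are summed UMIs per 1000000 UMIs of the same cells (CPM). Cells were placed in classes by UMIs of marker genes alone, none of them among the 42, and a class is called here by its gate. Where 3 values follow a gene without further words, they are those of naive, D2 CTX and D7 CTX cells in that order. The sorted libraries went with their label, since 95.7% of naive and 92.3% of CTX sorted cells passed the monocyte gate. The B lineage gate held 1947, 1604 and 187 cells of naive, D2 CTX and D7 CTX BM, with all 8 of its markers detected, at 9604, 11044 and 6611 CPM in sum. The progenitor gate held 216, 169 and 388 cells with all 11 of its markers detected, at 1129, 1432 and 685 CPM in sum. The same 11 markers summed to 1030, 826 and 991 CPM in the B lineage gate, so at day 7 they were not higher in the progenitor gate. The 5 markers of its granulocyte-monocyte side, called azurophil markers here, were the azurophil granule genes Mpo, Elane, Prtn3 and Ctsg together with Ms4a3. The makeup of the progenitor gate differed between days, since these 5 markers summed to 26122 CPM in naive, 7254 CPM at day 2 and 35872 CPM at day 7. The part of this difference in the results for the gate was not tested, and both sides of the gate are given apart where the gate is described.

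Promoter sequence was read for 36 of the 42 genes from RefSeq (GRCm38.p6), in windows from 250 bases before to 50 bases after the transcription start. Mitotic promoters are known for 2 elements, the cell cycle genes homology region (CHR), to which the DREAM and MuvB complexes bind, and the CCAAT box, to which NF-Y binds. Both strands were searched for CHR as TTTGAA or TTCGAA, for the CCAAT box as CCAAT, and for an E2F site as TTTGGCGC, TTTCCCGC, TTTGGCGG or TTTCCCGG. A CHR was found in 28 of the 36 (77.8%), against 21.7% of all 27025 genes with a window. A CCAAT box was found in 27 (75%) against 41.1%, and both elements in 24 (66.7%) against 9.65%. The E2F letters were found in 1 of the 36 (2.78%) against 3.79%. These are matches of letters and not sites of binding, and a window without a match says only that these letters are not in it. The 250 bases before the start are printed for Mki67, Ube2c, Top2a, Cks2 and Birc5, the genes with a match and the most UMIs over the 5 libraries, because they carry 33.7% to 39.2% of the UMIs of the 42 genes in each library. Capitals mark the matches. They read the motif or, for a match on the other strand, its reverse complement (ATTGG for the CCAAT box, TTCAAA for CHR). The stretches are Mki67 at chr7:135716380-135716629 on the minus strand, Ube2c at chr2:164769679-164769928 on the plus strand, Top2a at chr11:99024190-99024439 on the minus strand, Cks2 at chr13:51644982-51645231 on the plus strand and Birc5 at chr11:117848987-117849236 on the plus strand.
Mki67: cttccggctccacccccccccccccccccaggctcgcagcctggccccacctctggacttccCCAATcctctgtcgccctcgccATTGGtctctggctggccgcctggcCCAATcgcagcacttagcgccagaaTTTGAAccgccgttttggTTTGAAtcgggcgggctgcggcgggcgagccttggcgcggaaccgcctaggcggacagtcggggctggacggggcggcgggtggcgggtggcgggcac
Ube2c: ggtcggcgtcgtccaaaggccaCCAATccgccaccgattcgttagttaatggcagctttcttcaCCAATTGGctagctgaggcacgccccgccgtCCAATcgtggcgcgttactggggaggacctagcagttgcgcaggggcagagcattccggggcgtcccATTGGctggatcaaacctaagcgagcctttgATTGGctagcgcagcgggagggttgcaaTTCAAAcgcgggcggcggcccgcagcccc
Top2a: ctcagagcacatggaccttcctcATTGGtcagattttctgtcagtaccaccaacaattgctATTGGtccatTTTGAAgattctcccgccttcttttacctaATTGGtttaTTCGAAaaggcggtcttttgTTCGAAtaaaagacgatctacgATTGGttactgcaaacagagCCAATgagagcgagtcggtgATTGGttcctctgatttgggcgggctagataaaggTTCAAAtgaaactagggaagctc
Cks2: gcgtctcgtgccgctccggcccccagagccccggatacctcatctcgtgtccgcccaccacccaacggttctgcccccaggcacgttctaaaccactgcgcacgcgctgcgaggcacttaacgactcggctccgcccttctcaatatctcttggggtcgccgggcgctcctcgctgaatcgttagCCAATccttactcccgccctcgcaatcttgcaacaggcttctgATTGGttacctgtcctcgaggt
Birc5: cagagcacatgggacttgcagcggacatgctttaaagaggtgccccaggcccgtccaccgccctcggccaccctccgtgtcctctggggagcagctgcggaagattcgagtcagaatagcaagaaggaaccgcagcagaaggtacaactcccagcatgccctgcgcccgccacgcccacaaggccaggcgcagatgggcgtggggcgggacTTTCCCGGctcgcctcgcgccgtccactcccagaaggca

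Mki67 had CHR matches 116 and 98 bases before its start with 3 CCAAT boxes farther upstream, and Ube2c had 1 CHR match 29 bases before its start with 6 CCAAT boxes. In Ube2c, 1 pair of CCAAT boxes on opposite strands overlapped. Top2a held 4 CHR matches and 6 CCAAT boxes. Cks2 held CCAAT boxes and no CHR match, and Birc5 held neither, its only match being the E2F letters 39 bases before the start. The genes with both elements and the other 12 with a window had medians of the log2 ratio of D2 CTX over naive of 0.80 and 0.64 in progenitors, -4.15 and -3.87 in B lineage cells, 0.33 and 0.16 in monocytes and 0.60 and 0.63 in neutrophil precursors.

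In whole BM, mitotic transcripts were lower on both days after CTX. The 42 genes summed to 5285 CPM (5264 to 5306) in naive BM, 3029.8 CPM (3011 to 3048) at day 2 and 2969.6 CPM (2957 to 2983) at day 7. The naive interval lay apart from both others, and the log2 ratios were -0.80 (-0.81 to -0.79) for D2 CTX over naive and -0.83 (-0.84 to -0.82) for D7 CTX over naive. All 42 genes were below their naive level at day 2 and 41 at day 7. A gene was counted as changed where its log2 ratio was at least 1 in size, among genes with at least 50 UMIs over the pair. By this rule 10 of the 42 were lower and none higher in D2 CTX BM, against 4.23% of the 12671 genes tested being lower, and the median ratio was -0.74 for the 42 and 0.23 for all genes tested. Averaged over cells in place of UMIs, the summed ratio was -1.46 at day 2 and -0.55 at day 7. In D7 CTX BM 9 were lower and none higher, but 32.2% of the 12431 genes tested were lower and the median of all genes was -0.69 beside -0.82 for the 42. Scaled to the median of gene ratios, the summed ratio at day 7 was -0.14 and none of the 42 was lower, so at day 7 the genes were nearly as low as the typical gene and no more is read from that count. In a sum over a whole library, fewer dividing cells and less RNA per dividing cell cannot be told apart.

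**Figure D1:**
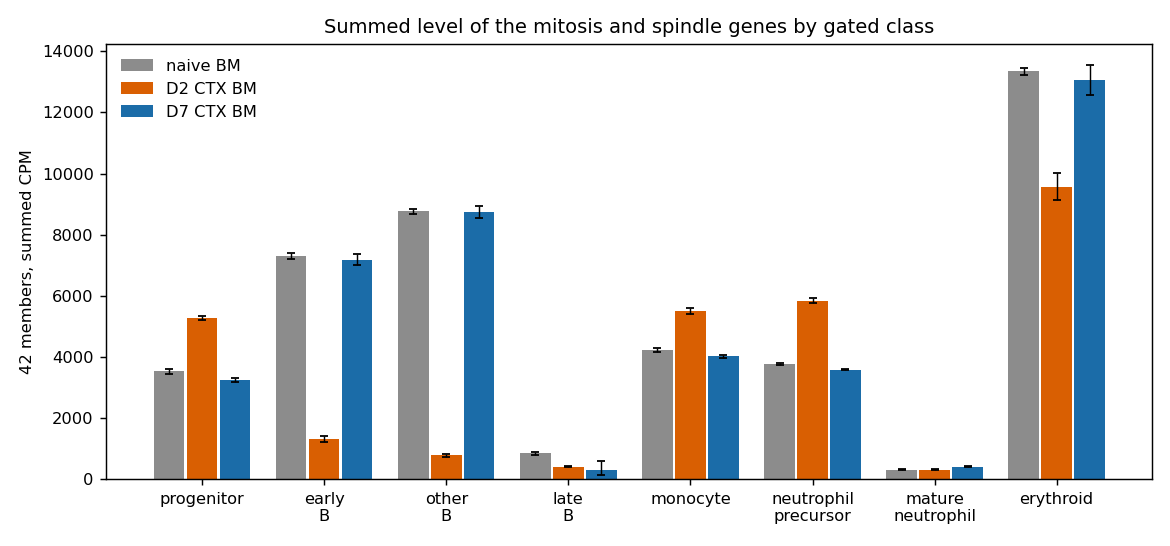
Summed level of the 42 genes in CPM (vertical axis, from 0) in 8 marker-gated classes of whole BM, with naive in grey, D2 CTX in orange and D7 CTX in blue, and exact 95% Poisson intervals as error bars. The D2 CTX bar is the highest of the 3 in progenitors (5275 CPM), monocytes (5506 CPM) and neutrophil precursors (5849 CPM) and far below both others in early B (1312 CPM) and other B cells (788 CPM).

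The CDK1 engine gave the most genes counted as lower in D2 CTX BM, 5 of its 8. Ccna2, the cyclin A2 that acts from S phase into early mitosis, was at 143 CPM in naive, 61.7 at day 2 and 64.7 at day 7, and at 112 and 127 in naive and CTX sorted monocytes. Its log2 ratio was -1.22 (-1.29 to -1.14) at day 2. Ccnb2, a B-type cyclin, stood at 147, 65.9 and 98.5 CPM in the 3 whole BM libraries, so its level at day 7 lay between the other two. Cdkn3, a phosphatase that acts on CDKs, had 68.2 CPM in naive, 31.8 in D2 CTX, 69.8 in D7 CTX, 66.7 in naive sorted and 72.5 in CTX sorted cells. It was the only member whose whole BM level at day 7 was not below naive, at a log2 ratio of 0.03. Cks2, the small adaptor of the CDK1 complex and the gene of the group with the most UMIs, had 295 CPM in naive BM, 162 at day 2 and 189 at day 7, with 204 and 219 in the sorted libraries. Cdk1 itself, with 115, 73.8 and 86.8 CPM in whole BM and 101 and 119 CPM in sorted cells, was among the 3 genes least reduced at day 7, at a log2 ratio of -0.40.

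Mki67, which encodes the Ki-67 protein that coats mitotic chromosomes, was the gene reduced most on both days. It had 622 CPM in naive BM, 261 at day 2 and 194 at day 7, with log2 ratios of -1.25 (-1.29 to -1.22) and -1.68 (-1.71 to -1.65). Its share of the UMIs of the 42 genes was 11.8% in naive, 8.62% at day 2 and 6.53% at day 7. Top2a, the topoisomerase that untangles sister chromatids, was at 479, 279 and 204 CPM in whole BM and 254 and 340 CPM in naive and CTX sorted cells. Both genes were thus lower at day 7 than at day 2, unlike most of the CDK1 engine. Kif4, a chromosome-bound kinesin, had 42.8, 18.8 and 17.3 CPM in whole BM, at log2 ratios of -1.18 and -1.31, and 25.6 and 33.0 CPM in sorted cells.

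Among kinases and passenger proteins, Birc5 (survivin, a subunit of the passenger complex with Aurora B) had the most UMIs, at 277 CPM in naive, 134 at day 2 and 169.5 at day 7 and at 239.6 and 271 CPM in the sorted libraries. The spindle checkpoint and cytokinesis groups held no gene counted as lower at day 2, and their sums gave log2 ratios of -0.49 (-0.53 to -0.45) and -0.40 (-0.45 to -0.34), with the anaphase-promoting group next at -0.50 (-0.53 to -0.47). Bub3, a checkpoint protein that binds Bub1 and BubR1, went from 143 CPM in naive to 111 at day 2 and 101 at day 7. The 3 least reduced genes at day 2 were Kif20b (59.2, 48.4 and 32.6 CPM), Kif20a (26.6, 21.5 and 14.0 CPM) and Kif23 (79.4, 63.5 and 46.6 CPM), all kinesins of the late spindle and the midzone, with log2 ratios of -0.29, -0.30 and -0.32. These 3 were lower at day 7 than at day 2. In sorted monocytes Kif20b was at 41.5 and 55.5 CPM, Kif20a at 22.9 and 25.3 CPM and Kif23 at 73.3 and 89.1 CPM, in naive and CTX order.

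Of the anaphase-promoting group, Ube2c, its ubiquitin-conjugating enzyme, had 401 CPM in naive, 320.3 at day 2 and 287.9 at day 7, and its share of the UMIs of the 42 was 7.60%, 10.6% and 9.70%. Pttg1 (securin, the inhibitor of separase) had 105, 47.2 and 75.9 CPM, a log2 ratio of -1.15 at day 2. Thus the enzyme and its substrate differed in how far they lay below naive at day 2. At the kinetochore, Cenpa, the histone H3 variant of centromeres, had 252 CPM in naive BM, 154.5 at day 2 and 165 at day 7, with 228 and 244.5 in sorted cells. Ndc80, the microtubule-binding subunit of its complex, had 34.5, 18.8 and 26.7 CPM in whole BM and 36.6 and 50 CPM in sorted cells. Nusap1, a microtubule-bundling protein of the spindle, was at 206, 105 and 108 CPM in whole BM. The sums of all 8 role groups therefore lay below naive on both days and differed in size, from -0.40 to -1.0 for the sums at day 2 and from -0.47 to -1.43 at day 7.

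The classes of cells that carried these transcripts differed between the libraries. In naive BM, B lineage cells held 29.3% of the UMIs of the 42 genes, erythroid cells 25.3%, neutrophil precursors 16.4%, monocytes 7.09% and progenitors 3.85%. In D2 CTX BM the B lineage held 2.74% and erythroid cells 1.74%, while neutrophil precursors held 27.9%, progenitors 27.0% and monocytes 15.6%. In D7 CTX BM neutrophil precursors held 62.4%, monocytes 12%, B lineage cells 6.68% and progenitors 6.67%. Part of these UMIs lay in unassigned cells. Those that passed no gate held 8.92% in naive, 14.3% at day 2 and 1.51% at day 7, and those past more than 1 lineage 5.60%, 2.67% and 3.76%. Over the same days B lineage cells were 27.4%, 26.2% and 2.26% of kept cells, progenitors 3.04%, 2.76% and 4.68%, and neutrophil precursors 18.1%, 5.68% and 43.1%. B lineage cells and progenitors thus held about the same share of cells at day 2 as in naive BM, while the B lineage held less and progenitors more of the mitotic UMIs. Of all UMIs, B lineage cells held 21.3%, 13.2% and 2.52% and progenitors 5.76%, 15.5% and 6.09%, so progenitors also gave a larger part of all transcripts at day 2. Putting the naive level of each class into the shares of all UMIs that the classes held in D2 CTX BM would give 3648 CPM, and into those of D7 CTX BM 3132 CPM. With the naive shares of all UMIs, the class levels of D2 CTX BM would give 3841 CPM and those of D7 CTX BM 5096 CPM, against 5285 CPM measured in naive BM.

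**Figure D2:**
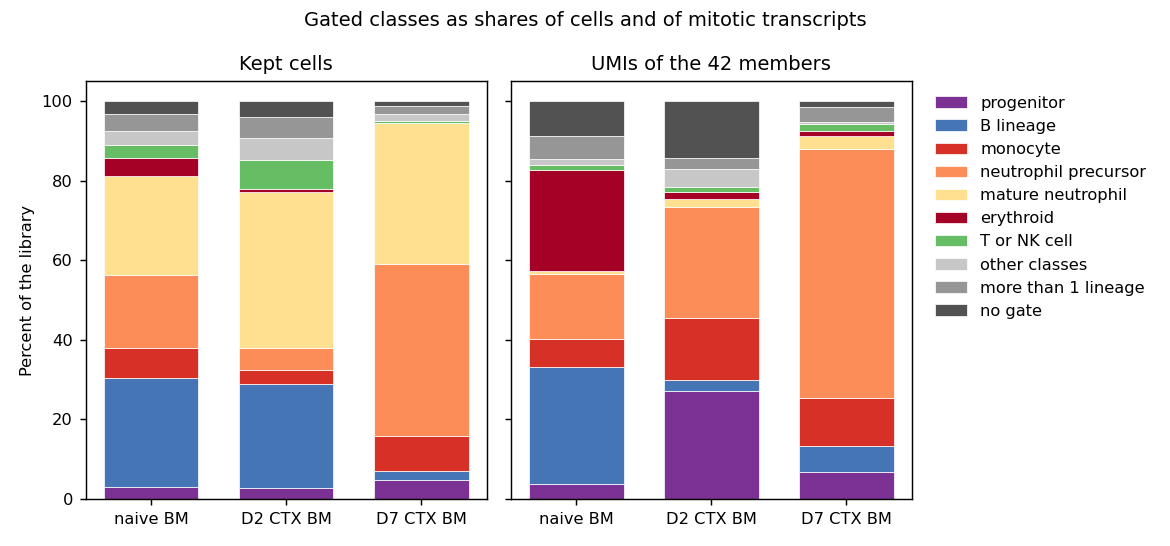
Stacked bars of the 3 whole BM libraries, with each gated class as a percent of kept cells on the left and as a percent of the UMIs of the 42 genes on the right. B lineage cells go from 29.3% of these UMIs in naive to 2.74% in D2 CTX BM, progenitors hold 27.0% in D2 CTX BM, and neutrophil precursors hold 62.4% in the D7 CTX library.

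B lineage cells at day 2 showed the largest difference of the gated classes. Their summed level was 7267 CPM (7213 to 7320.2) in naive, 629 CPM (606 to 653) at day 2 and 7852 CPM (7719.7 to 7985) at day 7. The log2 ratio at day 2 was -3.53 (-3.58 to -3.48), an 11.5-fold lower level, and at day 7 it was 0.11 (0.09 to 0.14). All 42 genes were counted as lower at day 2, against 7.91% of the 9749 genes tested, with a median of -4.03 for the 42 and 0.21 for all genes. At day 7 none of the 42 was counted in either direction, against 6.31% of 9288 genes, with a median of 0.07 for the 42 and -0.08 for all genes. B lineage cells of D7 CTX BM were 187, and their median depth was 6166 UMIs beside 2777 in naive and 2479 in D2 CTX BM.

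Cdkn3, Ccnb2 and Ube2c were the genes reduced most in these cells. Cdkn3 had 81.1 CPM in naive, 0.223 CPM, a single UMI, at day 2 and 82.8 CPM in D7 CTX cells, so its log2 ratio of -8.51 at day 2 had the wide interval of -13.81 to -6.02. Ccnb2 had 188.5 CPM in naive, 2.90 at day 2 and 259.5 at day 7. Ube2c had 523, 9.14 and 504 CPM, with log2 ratios of -5.84 at day 2 for Ube2c and -6.02 for Ccnb2. For both genes the D2 CTX library alone was low. Mki67 had 751.3, 44.2 and 751.1 CPM and Top2a 819, 61.3 and 823 CPM. Cks2 was at 352.5, 43.7 and 441 CPM, Birc5 at 309, 17.2 and 385 CPM, Nusap1 at 299.9, 10.5 and 294.5 CPM and Kif23 at 116, 10.7 and 118 CPM. The 3 genes least reduced were Bub3 (223, 98.8 and 241 CPM), Cenpa (324.5, 102 and 324 CPM) and Kif20b (96.6, 28.8 and 100.3 CPM), at log2 ratios of -1.18, -1.67 and -1.75. Bub3 and Cenpa together with the other genes of their roles gave the spindle checkpoint a summed ratio of -1.90 and the kinetochore -2.93, beside -4.84 for the anaphase-promoting group and -4.00 for the CDK1 engine. At day 7, Ccnb1 (cyclin B1, the main mitotic partner of CDK1) was the highest of the 42 against naive, with 98.4, 2.90 and 160.4 CPM in naive, D2 CTX and D7 CTX cells. Cdk1 (128, 6.24 and 198 CPM) and the checkpoint gene Mad2l1 (71.9, 21.2 and 101 CPM) followed, so the log2 ratios at day 7 were 0.70, 0.64 and 0.49. The lowest at day 7 were Spc25, of the Ndc80 complex (93.0, 9.14 and 76.4 CPM), Ect2, the activator of RhoA at the cleavage furrow (42.1, 4.91 and 35 CPM) and the kinetochore kinesin Cenpe (163, 7.14 and 141 CPM), at -0.28, -0.27 and -0.20.

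The stages of the B lineage also differed in number, since cells with late markers were 984 of the 1604 at day 2 and 486 of the 1947 in naive BM. The summed level was lower at day 2 in each stage, though the late stage was mixed over its genes. Early B cells, with UMIs of the surrogate light chain genes Vpreb1 and Igll1, had 7300.5 CPM in naive (351 cells), 1312 at day 2 (114 cells) and 7178 at day 7 (87 cells). Their log2 ratio at day 2 was -2.48 (-2.59 to -2.37), with 41 of the 42 genes counted as lower against 6.51% of 7154 genes. At day 7 it was -0.02 (-0.07 to 0.02), with none of the 42 counted against 2.16% of 7206 genes. Medians over the 42 were -2.70 and -0.10, and over all genes 0.26 and 0.01. The level of early B cells at day 7 could not be separated from naive by counting error. The other B cells, with neither or with both marker sets past the limit, went from 8769 CPM to 788 and 8732 CPM. All 42 genes were counted as lower in them at day 2, against 8.75% of 8273 genes. Cells with late markers had 856 CPM in naive and 416 CPM in D2 CTX BM. Only 10 of the 42 genes had enough UMIs to be compared there. Of these, 4 were above and 6 below naive, with 5 counted as lower against 0.869% of 7250 genes. Genes were compared by their UMIs over both libraries together, so a gene scarce at day 2 entered only with many naive UMIs. The other 32 were not compared, so these counts do not settle the direction of the 42 genes in late cells. The share of late cells with at least 2 UMIs of the 42 genes, after thinning each cell to 1000 UMIs, was 7.68% (5.46% to 10.4%) in naive and 6.50% (5.03% to 8.24%) at day 2, so the intervals overlapped.

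In early B cells Cdkn3 (71.5, 1.84 and 87.1 CPM in naive, D2 CTX and D7 CTX), Ccnb2 (191, 5.53 and 294 CPM) and Ube2c (537, 22.1 and 556 CPM) were again the 3 lowest at day 2, at log2 ratios of -5.28, -5.11 and -4.60. Cdkn3 rested on 1 UMI at day 2, with an interval of -10.59 to -2.79. Bub3 (198, 133 and 207 CPM) was the highest at -0.58, the only 1 of the 42 not counted as lower. Mad2l1 (68.9, 31.4 and 96.8 CPM) and Kif4 (58.4, 22.1 and 49.6 CPM) followed at -1.14 and -1.40. Mki67 was at 743, 175 and 645 CPM and Top2a at 759, 219.5 and 621 CPM, so both kept more of their naive level than Ube2c and Ccnb2 did. At day 7 Ccnb2, Mad2l1 and Ccnb1 (127, 7.38 and 177 CPM) were the highest, at 0.62, 0.49 and 0.47. Spc25 (81.7, 24.0 and 43.5 CPM), the checkpoint kinase gene Ttk (42.3, 12.9 and 24.2 CPM) and Cdca3 (134, 12.9 and 90.7 CPM), whose product promotes mitotic entry, were the lowest at -0.91, -0.81 and -0.56.

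**Figure D3:**
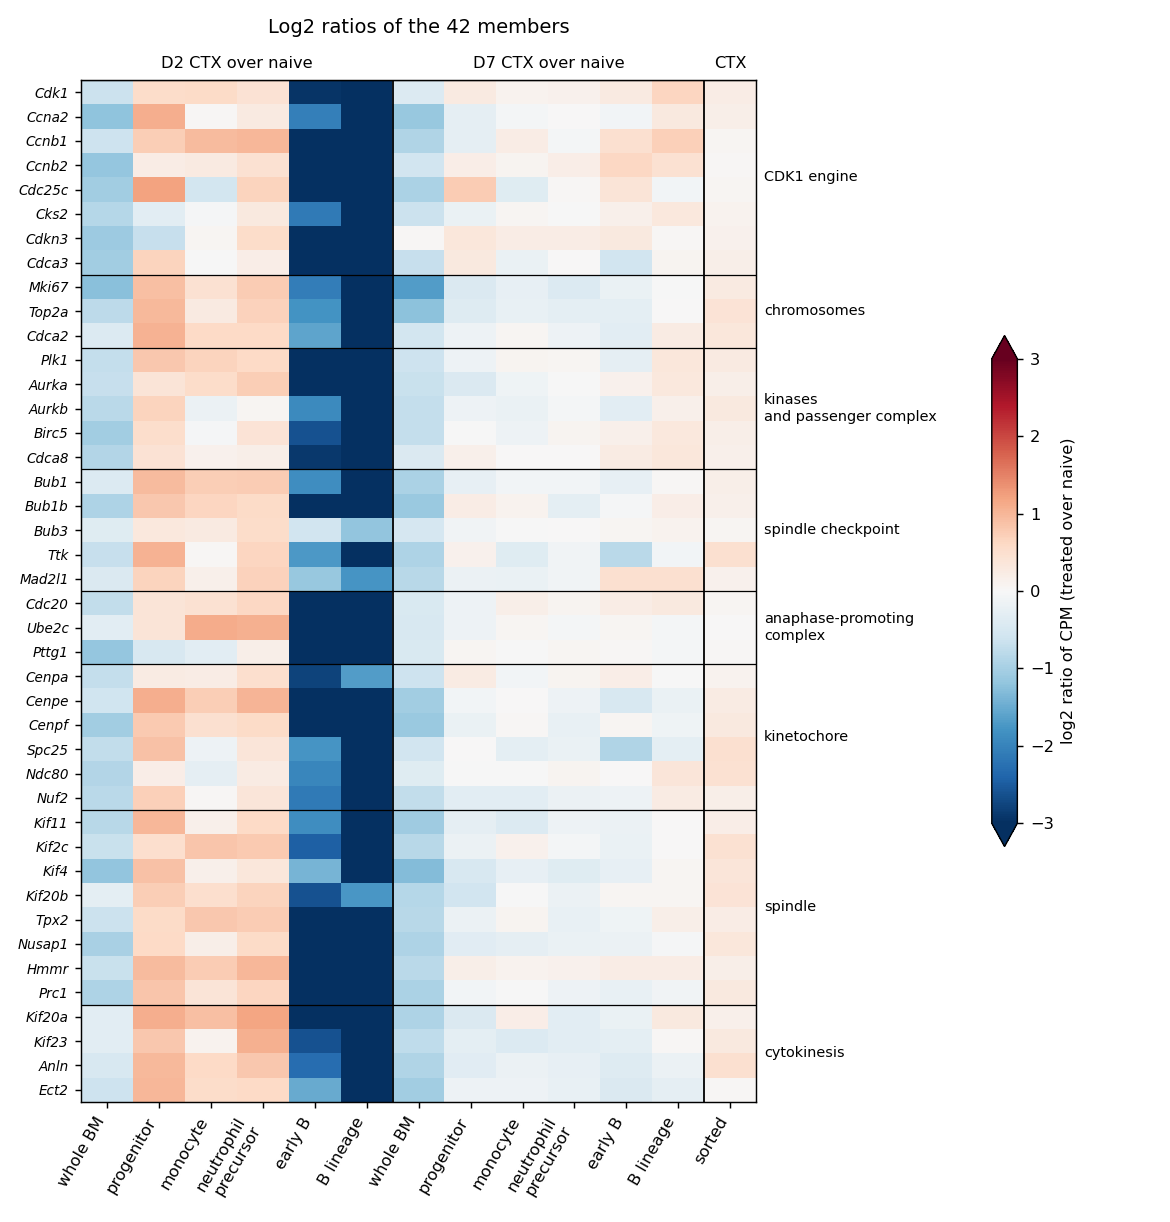
Log2 ratios over naive for the 42 genes (rows, grouped by role) in whole BM and in gated classes at day 2 and day 7 and in sorted monocytes (columns), on a color scale from -3 to 3. The B lineage and early B columns of day 2 are negative for all 42 genes, the neutrophil precursor column of day 2 is above 0 for all 42, and the day 7 columns of the gated classes lie between -0.91 and 0.76.

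Progenitors went the other way at day 2. Their summed level was 3529.9 CPM (3459 to 3602) in naive, 5275 CPM (5213 to 5338) at day 2 and 3253 CPM (3198 to 3308) at day 7, so that D2 CTX stood above both other libraries. The log2 ratio was 0.58 (0.55 to 0.61) at day 2, a 1.49-fold higher level, and -0.12 (-0.16 to -0.08) at day 7. At day 2, 39 of the 42 genes were above naive and 7 were counted as higher, none as lower, against 8.84% of the 8905 genes tested being higher. The median was 0.74 for the 42 and 0.33 for all genes. Scaled to the median of gene ratios the summed ratio was 0.25 and the count of genes higher by 1 log2 unit was 0. At day 7 none of the 42 was counted, against 7.19% of 7898 genes, with medians of -0.16 for the 42 and -0.21 for all genes. Scaled in that way, or as the mean of single-cell levels, the day 7 ratio turned to 0.09 and 0.06.

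The higher level at day 2 was present on both sides of the gate. Azurophil-rich cells had 3498 CPM in naive (133 cells), 4630.3 CPM at day 2 (49 cells) and 3209 CPM at day 7 (342 cells). Cells gated by Kit or Cd34, the receptor of stem cell factor and a stem cell antigen, had 3579 CPM (83 cells), 5587 CPM (120 cells) and 3574 CPM (46 cells). The log2 ratio at day 2 was 0.40 (0.36 to 0.45) for the first and 0.64 (0.59 to 0.69) for the second. Of the tested genes, 4 of 41 and 8 of 42 were counted as higher, against 10.7% of 5921 and 5.08% of 7947 genes, and none lower. The count on the azurophil-rich side was thus near the share of all genes. Medians were 0.63 for the members tested and 0.31 for all genes on that side, and 0.79 and 0.13 on the Kit or Cd34 side. Cells of the progenitor gate had a median of 10890.5 UMIs in naive, 29160.0 at day 2 and 9994 at day 7, and the part of this depth in the summed level was not tested.

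The genes counted as higher in D2 CTX progenitors came from 5 of the 8 roles. Cdc25c, the phosphatase that activates CDK1, had 5.27 CPM in naive, 12.2 at day 2 and 8.95 at day 7, the fewest UMIs of the 42 over the libraries, with a wide interval of 0.35 to 2.15 around its log2 ratio of 1.20. Ccna2 had 58.4, 125 and 48.6 CPM, a ratio of 1.10 (0.85 to 1.36). Kif20a, the kinesin that carries the passenger complex to the midzone, had 17.3, 36.8 and 12.8 CPM, a ratio of 1.09 (0.62 to 1.58). These 3 were the highest, and only Cdc25c was above naive at day 7 as well. Cenpe (62.9, 133 and 59.2 CPM), Ttk (15.4, 31.9 and 16.9 CPM), Cdca2, a chromatin-bound subunit of protein phosphatase 1 (25.6, 52.6 and 23.2 CPM), and Ect2 (21.1, 42.3 and 18.9 CPM) completed the 7. Just short of the limit stood the spindle motor Kif11 at 0.995, followed by Anln at 0.964 and Top2a at 0.962.

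Top2a had 299.8 CPM in naive, 584 at day 2 and 229 at day 7, and Mki67 had 227.5, 426 and 169 CPM, and chromosome genes as a group had the largest summed ratio, 0.94 (0.86 to 1.03). Cytokinesis genes followed at 0.93 (0.74 to 1.12), with Kif23 at 46.7, 81.8 and 38.0 CPM. The CDK1 engine had the smallest, 0.22 (0.14 to 0.29), with members spread from -0.69 to 1.20. Cdkn3 had 35.8 CPM in naive, 22.2 at day 2 and 45.2 at day 7, Pttg1 81.0, 58.1 and 83.9 CPM and Cks2 352, 284 and 308 CPM. These were the only 3 of the 42 below naive at day 2, at log2 ratios of -0.69, -0.48 and -0.31. The other leading genes of their roles were above naive at day 2, with Ube2c at 347, 453 and 309.8 CPM, Birc5 at 169, 243.5 and 167 CPM, Nusap1 at 117, 179 and 92.4 CPM, Cenpa at 174, 205 and 208 CPM and Bub3 at 124, 155 and 116 CPM. At day 7 the lowest were Kif20b (58.0, 96.6 and 39.2 CPM), Kif4 (18.8, 34.7 and 13.5 CPM) and Kif20a, at -0.57, -0.48 and -0.44. The highest were Cdc25c at 0.76, Cdkn3 at 0.34 and Cdca3 (58.0, 91.9 and 71.1 CPM) at 0.29.

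Neutrophil precursors, gated by secondary granule genes such as Camp, Ltf and Ngp, were fewer at day 2 and richer in mitotic transcripts. There were 1286 in naive, 348 at day 2 and 3576 at day 7, with summed levels of 3783 CPM, 5849 CPM and 3583 CPM. The log2 ratio was 0.63 (0.61 to 0.65) at day 2, a 1.55-fold higher level, and -0.08 (-0.09 to -0.06) at day 7. All 42 genes were above naive at day 2, with 4 counted as higher against 6.82% of 8250 genes tested. That share was near the one of all genes, and the median was 0.60 beside 0.27 for all genes. At day 7 none of the 42 was counted, against 2.86% of 9429 genes, with medians of -0.07 for the 42 and -0.17 for all genes. The median depth of these cells was 6778, 11853.5 and 9047 UMIs.

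In these precursors Kif20a had 18 CPM in naive, 41.0 at day 2 and 14.4 at day 7, Ube2c 395, 829 and 380.4 CPM and Kif23, the midzone kinesin of the centralspindlin complex, 64.2, 134 and 51.7 CPM. Their log2 ratios at day 2 were 1.19, 1.07 and 1.06, and Cenpe (69.3, 139 and 62.1 CPM) was the fourth counted, at 1.01. Ccnb1 and the spindle gene Hmmr (61.2, 122 and 66.8 CPM) stood just below the limit at 0.99 and 0.997. The lowest were Aurkb (54.6, 56.7 and 52.4 CPM), Cdca8 (138, 156 and 141 CPM) and Pttg1 (92.4, 104 and 95.5 CPM), at 0.05, 0.17 and 0.17. Aurora B and borealin, the products of Aurkb and Cdca8, belong to 1 complex. By role the sums ran from 0.35 for kinases and passenger proteins to 0.90 for the anaphase-promoting group and 0.97 for cytokinesis. Mki67 (278, 473 and 209 CPM), Kif4 (26.8, 33.9 and 20.7 CPM) and Kif20a were the lowest at day 7, at -0.41, -0.37 and -0.32. Cdkn3 (87.5, 128.5 and 102 CPM), Ccnb2 (108, 148 and 124 CPM) and Hmmr were the highest at day 7, at 0.22, 0.20 and 0.13.

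Monocytes of whole BM had a smaller difference of the same direction at day 2. Their summed level was 4242 CPM (4179 to 4306) in naive (539 cells), 5506 CPM (5422 to 5592) at day 2 (204 cells) and 4031 CPM (3980.0 to 4082) at day 7 (743 cells). The log2 ratio was 0.38 (0.35 to 0.41) at day 2 and -0.07 (-0.10 to -0.05) at day 7. The day 2 level stood above both others, but 1 of the 42 genes was counted as higher, against 5.12% of 8398 genes. The median was 0.27 for the 42 and 0.08 for all genes, and 34 of the 42 were above naive. At day 7 none was counted, against 0.954% of 8802 genes, with medians of -0.01 and -0.07. The day 7 ratio turned to 0.11 as the mean of single-cell levels and to 0.03 with a stricter gate, and the day 2 ratio was 0.60 with a looser gate. The monocyte markers of the gated cells summed to 7373, 5821 and 7533 CPM, and the 5 azurophil markers to 1286, 2775 and 1473 CPM. The part of the latter in the result was not tested.

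The gene counted in D2 CTX monocytes was Ube2c, at 323 CPM in naive, 696 at day 2 and 336 at day 7, a log2 ratio of 1.11. Ccnb1 (53.6, 104 and 62.6 CPM) and Kif20a (27.0, 50.6 and 31.0 CPM) followed at 0.95 and 0.90. With 0.81 (0.73 to 0.90), the anaphase-promoting group had the largest summed ratio of the 8 groups. Kinases and passenger proteins had the smallest at 0.10 (0.01 to 0.19). The lowest genes were Cdc25c (11.1, 7.57 and 8.63 CPM), Pttg1 (103.5, 83.6 and 103 CPM) and Ndc80 (36.1, 29.9 and 36.0 CPM), at -0.55, -0.31 and -0.27. Mki67 had 369.5 CPM in naive, 504.5 at day 2 and 312 at day 7. At day 7 Kif11 (87.5, 98.0 and 65.7 CPM) and Kif23 (102, 110.4 and 77.2 CPM), both at -0.41, and Cdc25c at -0.36 were the lowest. Cdkn3 (56.5, 58.5 and 66.2 CPM), Ccnb1 and Kif20a were the highest, at 0.23, 0.22 and 0.20.

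Sorted monocytes, compared in their own pair of libraries, gave 3968 CPM (3942 to 3994) in naive and 4542 CPM (4517 to 4566) in CTX cells, a log2 ratio of 0.19 (0.18 to 0.21). All 42 genes were above naive, from 0.00 to 0.49, and none was counted, against 2.3% of 10673 genes in either direction. The median was 0.18 for the 42 and 0.04 for all genes, and as the mean of single-cell levels the summed ratio was 0.31. Anln, the cleavage furrow scaffold anillin, had 26.3 CPM in naive and 36.9 CPM in CTX cells, Ttk 15.0 and 20.8 CPM and Spc25 39.7 and 55.1 CPM, at 0.49, 0.48 and 0.47. Ube2c (337.1 and 337.8 CPM), Ect2 (19.2 and 19.6 CPM) and Ccnb2 (148 and 152 CPM) were nearly the same in both libraries, at 0.00, 0.03 and 0.04. Whole BM levels of these genes in naive, D2 CTX and D7 CTX order were 38.3, 27.2 and 20.5 CPM for Anln, 23.2, 14.3 and 12.3 CPM for Ttk, 69.1, 41.4 and 46.3 CPM for Spc25 and 26.2, 17.1 and 12.8 CPM for Ect2. Of the role leaders, Mki67 stood at 301 and 361.5 CPM, Nusap1 at 108 and 136 CPM and Bub3 at 149 and 155 CPM in the sorted pair. Cells of the monocyte gate alone gave 3937 CPM in naive (1810 cells) and 4596 CPM in CTX sorted cells (2367 cells). Azurophil-rich cells, counted apart from the monocyte gate whether or not they held monocyte markers, were 35 in naive and 102 in CTX sorted cells and had 6091 CPM and 4529.7 CPM. All 10 monocyte markers were detected in them, at a median of 28.7 and 27.1 UMIs per 10000 in naive and CTX cells, above the limit of 20 of the monocyte gate.

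Counting cells in place of transcripts also put D2 CTX above naive in progenitors and neutrophil precursors and below it in B lineage cells. To compare cells of unlike depth, each cell was thinned at random to 1000 UMIs, and a cell was counted where at least 2 of these UMIs came from the 42 genes. Shallower cells were left out, and they were 285 of the naive BM cells, 599 at day 2, 73 at day 7 and 21 and 17 of the naive and CTX sorted cells, with at most 25 cells from any progenitor, B lineage, monocyte or neutrophil precursor gate. Mature neutrophils, which should hold few of these transcripts, gave a background of 3.91% in naive, 3.57% at day 2 and 3.33% at day 7, at median depths of 2830.5, 3033 and 5219 UMIs before thinning. Progenitors counted were 50% (43.0% to 57.0%) in naive, 82.6% (76.0% to 88.1%) at day 2 and 47.8% (42.7% to 52.9%) at day 7, so that the D2 CTX interval lay above both others. Without thinning the shares were 91.7%, 97.6% and 93.3%. Neutrophil precursors gave 38.6%, 67.3% (62.1% to 72.3%) and 43.4%, and without thinning 62.5%, 79.6% and 69.6%. For B lineage cells the shares were 33.0%, 6.97% and 53.0%, or 53.2%, 27.7% and 68.4% unthinned. The D2 CTX share of 6.97% stood beside 3.57% in mature neutrophils and 7.37% in T or NK cells of the same library, the latter at a median depth of 2781 UMIs. T or NK cells are not a fixed background, since their share was 13.4% in naive and 54.1% at day 7. In early B cells the shares were 50.9%, 8.85% and 48.8%. For monocytes they were 31.2% (27.3% to 35.3%), 38.8% (32.0% to 45.9%) and 30.5%, and the naive and D2 CTX intervals overlapped. Sorted monocytes of the gate gave 33.6% (31.4% to 35.8%) in naive and 38.8% (36.9% to 40.8%) in CTX cells, with 78.5% and 82.6% unthinned. Cells counted in the B lineage of D2 CTX BM also held fewer of these UMIs each, with a mean of 2.58 beside 11.2 in naive and 9.87 at day 7. In progenitors the means were 4.78, 5.50 and 5.49 and in neutrophil precursors 6.62, 7.58 and 6.39.

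**Figure D4:**
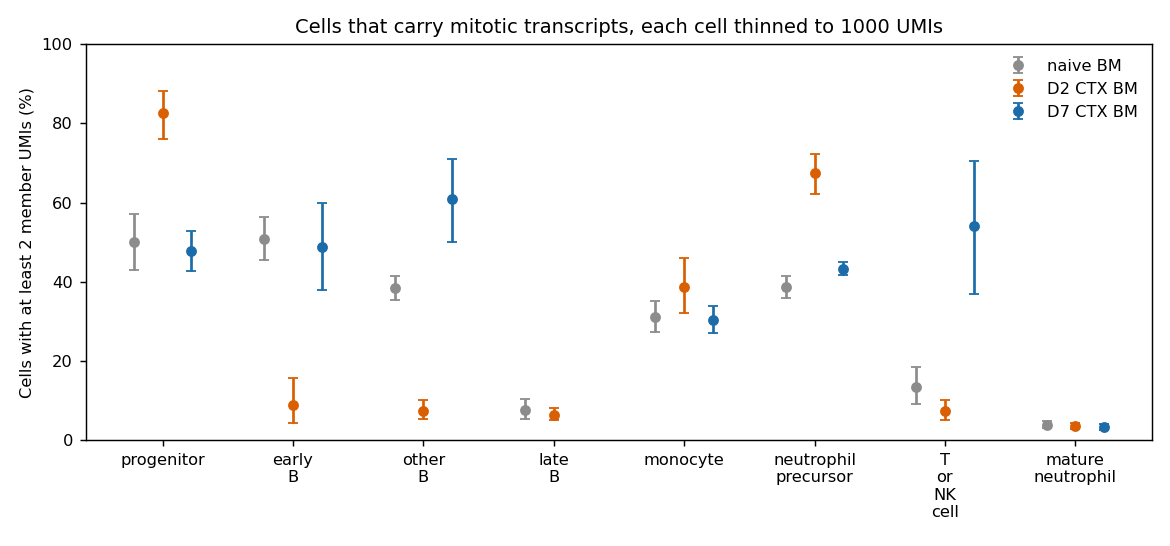
Percent of cells with at least 2 UMIs of the 42 genes after thinning each cell to 1000 UMIs (vertical axis), by gated class and library, with exact 95% Clopper-Pearson intervals. D2 CTX is the highest of the whole BM libraries in progenitors (82.6%) and neutrophil precursors (67.3%). It is the lowest in early B (8.85%) and other B cells (7.44%), and late B cells have no D7 CTX point. Mature neutrophils stay between 3.33% and 3.91%.

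Mature neutrophils lay near the low end of the classes and erythroid cells at the high end in naive BM. The lowest sums were those of plasma cells, at 145, 164 and 95.6 CPM from 21, 33 and 14 cells. Mature neutrophils summed to 313 CPM in naive, 316 at day 2 and 422 at day 7. In naive BM their level of each of the 42 genes was 2.35% to 29.7% of the level in neutrophil precursors, the highest remainder being that of Cks2, with 67.2, 71.8 and 52.1 CPM in mature neutrophils of the 3 libraries. Erythroid cells had 13339 CPM in naive (335 cells), 9568 CPM at day 2 (44 cells) and 13057 CPM at day 7 (13 cells). In naive BM 40 of the 42 genes had their highest class level there, the exceptions being the checkpoint genes Bub1b and Bub3, highest in B lineage cells. In D2 CTX BM, among classes of at least 30 cells, 22 genes were highest in erythroid cells, 8 in progenitors, 6 in monocytes, 5 in neutrophil precursors and 1 in basophils or mast cells. The 44 erythroid cells had a median depth of 2091.5 UMIs, and part of the 22 rested on few UMIs. Bub1b had 10 UMIs there, at 53.5 CPM (25.6 to 98.4) beside 45.1 CPM in neutrophil precursors, so counting error did not settle its highest class. In D7 CTX BM, where the erythroid gate was below that size, 36 genes were highest in B lineage cells. T or NK cells had 3321, 917 and 5774 CPM, from 226, 443 and 37 cells.

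Whether mitotic genes moved with the DNA synthesis genes of the same cells was asked with a list of 35 S phase genes. In whole BM the S phase sum had log2 ratios of -0.91 at day 2 and -1.33 at day 7, beside -0.80 and -0.83 for the 42 genes. In B lineage cells at day 2 the S phase sum went from 4253 CPM to 1050.4 CPM, a ratio of -2.02, beside -3.53 for the mitotic genes, and in early B cells it was -0.82 beside -2.48. The mitotic genes were thus 1.51 and 1.66 log2 units farther below naive than the S phase genes. In neutrophil precursors of D2 CTX BM the S phase sum was 1302 CPM in naive and 1331 CPM in D2 CTX, a ratio of 0.03 (-0.01 to 0.07), beside 0.63 for the mitotic genes. In progenitors the S phase ratio was 0.45 beside 0.58, in monocytes of whole BM 0.24 beside 0.38 and in sorted monocytes 0.24 beside 0.19. At day 7 the S phase ratio was 0.54 in B lineage cells, -0.25 in progenitors and -0.31 in monocytes. The 2 lists therefore went in 1 direction in progenitors, monocytes and B cells at day 2 and differed most in size in early B cells. Of the S phase genes, Rrm2, a subunit of ribonucleotide reductase, was the lowest in D2 CTX B lineage cells, at 289 CPM in naive and 14.0 CPM in D2 CTX cells. In that gate 32 of the 35 were counted as lower, against 7.91% of all genes, and none as higher.

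**Figure D5:**
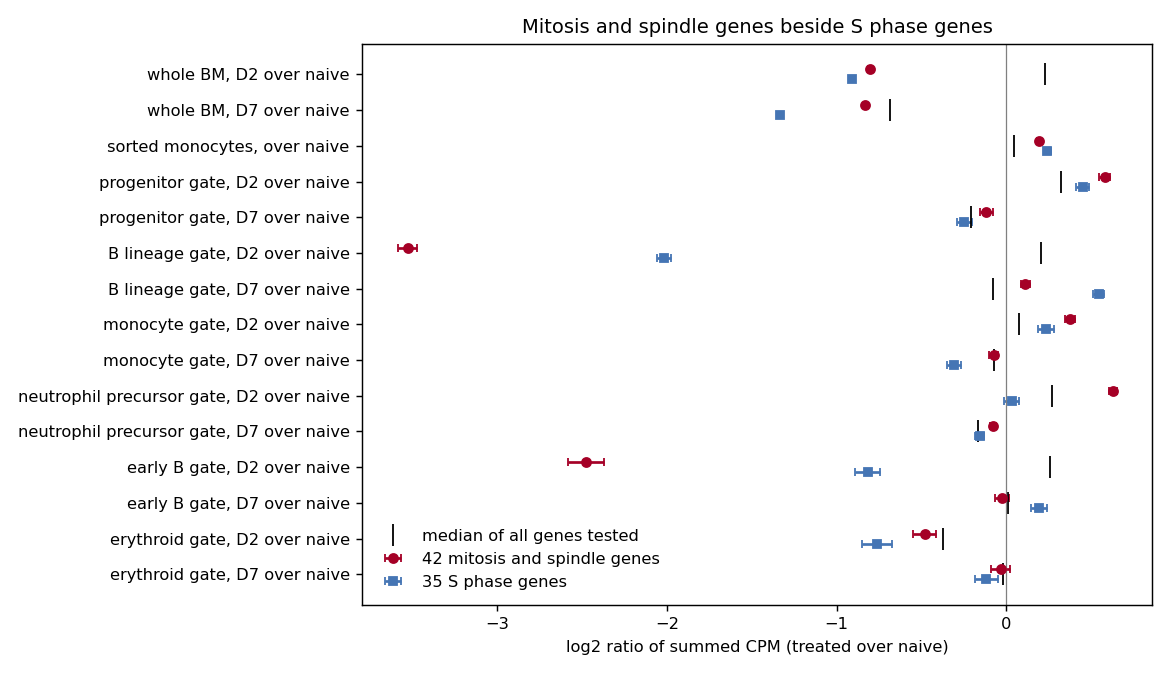
Log2 ratio over naive of the summed level (horizontal axis) of the 42 mitotic genes (red circles) and of 35 S phase genes (blue squares), with exact 95% intervals, and the median of all genes tested as a black tick, for 15 comparisons (vertical axis). At day 2 the red circle lies left of the blue square in B lineage cells (-3.53 and -2.02) and right of it in neutrophil precursors (0.63 and 0.03).

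Of 45 other mitotic genes that are not among the 42, 41 were counted as lower in D2 CTX B lineage cells, against 7.91% of all genes, and none as higher. Aspm, a spindle pole protein, was at 95.4 and 1.56 CPM in naive and D2 CTX cells of that gate. In D2 CTX progenitors 10 were higher and none lower, in neutrophil precursors 7 and none, and in monocytes 4 and none, where 8.84%, 6.82% and 5.12% of all genes were higher. The highest of these were Gtse1 and Psrc1, both known as targets of p53, at 6.03 and 55.4 CPM and at 6.03 and 53.9 CPM in naive and D2 CTX progenitors. In neutrophil precursors Psrc1 was at 1.90 and 18 CPM. At day 7 none of the 45 was counted in B lineage cells, monocytes or neutrophil precursors, and 1, Kif18b, was lower in progenitors. In whole BM 1 was higher, against 11.5% of all genes, and 7 lower at day 2, and none higher and 22 lower at day 7, against 4.23% and 32.2% of all genes being lower.

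Among 18 cell cycle inhibitors, Cdkn1a, the p53 target that encodes the CDK inhibitor p21, and Ccng1, another p53 target, were higher on day 2 in classes where the mitotic genes were higher. In progenitors Cdkn1a had 13.9 CPM in naive and 212 CPM in D2 CTX cells and Ccng1 28.3 and 303 CPM, at log2 ratios of 3.93 and 3.42. In neutrophil precursors Cdkn1a had 6.27 and 198 CPM and Ccng1 17.4 and 287 CPM, and in monocytes Cdkn1a had 54.6 and 479.7 CPM and Ccng1 37.9 and 359 CPM. Both genes were thus far above naive where the 42 genes were also above naive, but higher inhibitors were not particular to these classes. At day 2 the highest of the list was at 3.65 in erythroid cells, 2.40 in late B cells and 2.53 in mature neutrophils. The sum of the 42 genes was at -0.48, -1.04 and 0.01 there. In B lineage cells, where the 42 were below naive, Ccng1 had 39.4 and 144 CPM, a ratio of 1.87, and in early B cells Cdkn1a had a ratio of 2.28. The list as a whole had 4 genes higher and none lower in progenitors, 3 and none in neutrophil precursors, 5 and none in monocytes, where 8.84%, 6.82% and 5.12% of all genes were higher. It had 5 higher, against 12.5% of all genes, and 3 lower, against 7.91%, in B lineage cells. In sorted monocytes none was higher and 3 were lower, against 1.49% of all genes, among them Plk2 at 26.9 and 10.5 CPM in naive and CTX cells.

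Among 19 transcription regulators of the cycle, 8 were lower and 1 higher in D2 CTX B lineage cells, where 7.91% and 12.5% of all genes were. Foxm1, the transcription factor that drives late cell cycle genes, had 41.3 CPM in naive and 5.57 CPM in D2 CTX B lineage cells. In progenitors 4 were higher, against 8.84% of all genes, and none lower, led by E2f7, a repressor of the E2F family, at 1.73, and Rbl2, the p130 protein of the DREAM complex, at 1.63. Rbl2 was also the 1 regulator higher in neutrophil precursors, at 1.56, where 6.82% of all genes were higher. In whole BM at day 2 Rbl2 was again the 1 regulator higher, with 24.1 and 51.6 CPM, against 11.5% of all genes. There 3 regulators were lower, against 4.23% of all genes. In D2 CTX monocytes 1 regulator was higher, against 5.12% of all genes, and none lower. At day 7 none of the 19 was counted in B lineage cells or neutrophil precursors, 1 was lower in progenitors and 1 in monocytes, and 11 were lower in whole BM, where 32.2% of all genes were.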

How the data were processed

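The 5 libraries, 3 of whole BM and 2 of sorted CD11b+Ly6Chi monocytes, were made for single-cell RNA sequencing with 10x Genomics 3′ V3 reagents. The authors deposited UMI counts per gene and barcode without normalization, made with Cell Ranger 3.1 on mm10 (the submitters' processing notes also name Seurat 5.0). The sorted libraries and the whole BM libraries all held fewer barcodes than the numbers of cells given in the study's text. Following the limits in the study's methods, cells needed 200 or more detected genes and a mitochondrial share under 20% of UMIs. Groups were taken from the labels, and both days share 1 naive library. The 42 genes and all lists were chosen with earlier results of these data known.

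Classes were gated on summed marker UMIs per 10000 UMIs and on at least 2 detected marker genes (3 for monocytes). The limits were 20 for B lineage and monocyte markers, 100 for neutrophil precursor, mature neutrophil and azurophil markers, 10 for T, NK, plasmacytoid, macrophage and progenitor markers, 200 for erythroid, 100 for plasma cell and 20 for basophil or mast cell markers, set on the marker UMIs before the levels of the 42 genes were looked at. Cells past more than 1 lineage were kept apart, and early and late B cells were split at 10 UMIs per 10000. Progenitors were azurophil-rich cells that passed no lineage other than monocyte, or cells with progenitor markers and a UMI of Kit or Cd34 that passed no lineage. Doublets were not removed, except in 1 alternative that removed 0.8% per 1000 cells by Scrublet score.

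CPM were computed from summed UMIs, with exact Poisson intervals, exact conditional intervals for ratios and exact Clopper-Pearson intervals for shares, all at 95%. Genes with at least 50 UMIs over a pair were compared without a pseudocount, and a 0 was set to 3 UMIs. No test and no p-value was computed. Named in each comparison were the 3 highest and 3 lowest of the 42, the leading gene of each role by UMIs, and up to 4 genes of each other list. Genes just inside or outside the limit of 1 log2 unit, and those counted in a short list, were named after their values were seen. Reads of 3′ libraries do not allow levels of different genes to be compared per length. Promoter letters came from RefSeq windows of GRCm38.p6. Alternatives were other cell filters, other scalings, a minimum of 200 UMIs or none, a pseudocount of 1 CPM, leaving out the 5 most abundant of the 42, other gate limits, doublet removal, and other depths and limits for counting cells. Gating on cells thinned to 2000 UMIs and leaving out erythroid cells were added after seeing the data. The counting was tested on simulated data. Python 3.11.15, numpy 2.4.6, scipy 1.17.1, pandas 2.3.3, scanpy 1.11.5 and matplotlib 3.10.9 were used. ATAC-seq and patient samples were not analysed here.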

Additional observations from a re-analysis of the deposited data

Results flagged for a closer look

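For 9 of the 42 genes, the D2 CTX library lay at least 1 log2 unit above naive in 1 or more of the myeloid or progenitor classes and at least 1 log2 unit below naive in B lineage cells. With 1 library per condition, these differences between classes were not tested. All 42 were lower in B lineage cells by that limit, so only the first condition chose among them. Of all genes tested, 8.84% were higher in progenitors, 6.82% in neutrophil precursors and 5.12% in monocytes. The share of all genes that met both conditions was not counted. Scaled to the median of gene ratios, none of the 42 was higher in progenitors. Ccna2 had a log2 ratio of 1.10 in progenitors and -3.97 in B lineage cells. Cdc25c had 1.20 and -5.11, Cdca2 1.04 and -3.20, Ttk 1.05 and -3.97, and Ect2 1.0 and -3.10 in the same classes. Cenpe had 1.08 in progenitors, 1.01 in neutrophil precursors and -4.51 in B lineage cells, and Kif20a had 1.09, 1.19 and -4.34. Ube2c had 1.11 in monocytes, 1.07 in neutrophil precursors and -5.84 in B lineage cells. Kif23 had 1.06 in neutrophil precursors and -3.44 in B lineage cells. No library-level outlier could be looked for, since no group had more than 1 library.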

How the results depend on the processing

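Of 170 alternative values, 98 kept their direction and stayed within the limits of the change allowed, 68 moved and 4 changed sign. The kinds of result differed in this. Of 83 values of summed levels, 30 stayed within the limits, 49 moved and 4 changed sign. Of 72 counts of genes, 68 stayed and 4 moved, and all 15 shares of cells moved. No paired analysis was possible because each condition had 1 library. With 1 library per condition no replicate could be left out, and depth limits only counting error. Log2 ratios of the sum follow. Whole BM at day 2 (-0.80) gave -1.03 by median gene ratios, -0.84 without the 20 most abundant genes, -1.46 as the mean of single-cell CPM, -0.78 without the 5 most abundant members, -0.75 without doublets and -0.55 without erythroid cells, whose share of cells differed. Whole BM at day 7 (-0.83) gave -0.14, -0.40, -0.55, -0.74, -0.84 and -0.58 in the same order, -0.81 with all barcodes and -0.84 with at least 500 genes and under 10% mitochondrial UMIs. Sorted monocytes (0.19) gave 0.15 by median ratios, 0.31 by single-cell means and 0.21 without doublets. Progenitors at day 2 (0.58) gave 0.62 with all barcodes, 0.25 by median ratios, 0.52 without the 20 genes, 0.87 by single-cell means, 0.62 without the 5 members, 0.66 without doublets, 0.74 with a stricter and 0.42 with a looser gate. At day 7 (-0.12) they gave -0.078 with all barcodes, -0.17 with the stricter filter, 0.088 by median ratios, -0.046 without the 20 genes, 0.059 by single-cell means, -0.044 without the 5 members and -0.071 with thinned gates, so the sign turned in 2 of these. B lineage cells at day 2 (-3.53) gave -3.74 by median ratios, -3.14 by single-cell means, -3.31 without the 5 members, -3.97 with a stricter, -3.14 with a looser and -3.65 with a thinned gate, and at day 7 (0.11) 0.19, 0.44, 0.30, 0.062 and 0.035 for the same settings except the 5 members. Monocytes at day 2 (0.38) gave 0.30 by median ratios, 0.41 by single-cell means, 0.32 without the 5 members, 0.49 with a stricter, 0.60 with a looser and 0.29 with a thinned gate. At day 7 (-0.07) they gave -0.0032 by median ratios, 0.11 by single-cell means, 0.033 with a stricter and -0.13 with a thinned gate, so the sign turned in the second and the third. By median ratios the genes counted as lower were 20 in place of 10 in whole BM at day 2 and 0 in place of 9 at day 7, and in progenitors at day 2 0 in place of 7 were higher and 1 in place of 0 lower. The share of cells counted, in naive, D2 CTX, D7 CTX, naive sorted and CTX sorted order, was 29.9%, 15.1%, 27.8%, 34.1% and 39.3% at 1000 UMIs. It was 41.5%, 24.3%, 35%, 43.5% and 49.2% at 2000 UMIs, 48.2%, 34.9%, 42.4%, 50.9% and 55.8% with at least 1 UMI, and 21.8%, 9.08%, 20.1%, 24.4% and 29.8% with at least 4, so their order did not change. Thinned gates and leaving out erythroid cells were chosen after seeing the data. The causes of these moves were not tested.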
